A study of Mus musculus with 53 samples.

Results

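At 9 weeks, 3 p53-deficient mice that received a lentiviral vector with an sgRNA against Setd2 (KPTC-Setd2) were set against 3 mice that received an inert vector (KPTC-Neo). These 6 mice are 6 of the 53 mice of the series and were chosen by the genotype label alone, without use of any measured size. They hold 53309 of the 409584 listed tumours, 44339 in the Setd2 mice and 8970 in the Neo mice. Each mouse was dosed through the trachea with virus that carries Cre recombinase, an sgRNA and a DNA barcode, so that all cells of a tumour share 1 barcode. Barcodes were amplified from DNA of the whole lungs and sequenced as 1 library per mouse, a method called Tuba-seq, and the deposited size of a tumour is a number of cells.

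Both groups share the genotype KPTC. By the usual naming of these strains, P is an allele of p53 that Cre deletes, T a Cre-dependent fluorescent reporter and C a Cas9 allele. By this naming, p53 is deleted in the tumours of both groups, and the vector was the only labelled difference. The Setd2 vector carried 1 sgRNA, labelled sgSetd2#2, and the inert vector carried sgNeo, which the table lists as inert. The labels call the cells lung epithelium at mixed stages on the way to adenocarcinoma. No expression was measured, so neither the cell type nor the loss of p53 or Setd2 in a given tumour could be checked. The labels used here give neither the age and sex of the mice nor the amount of virus.

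Setd2 (gene ID 235626, also KMT3A) encodes the methyltransferase that places the trimethyl mark on histone H3 along the bodies of transcribed genes. The mark takes part in splicing, DNA repair and the silencing of false start sites, and the gene is a tumour suppressor that is recurrently mutated in lung adenocarcinoma. p53 is a transcription factor that stops or kills cells under DNA damage or oncogene stress. The comparison asks how large tumours grow without Setd2 when p53 is already lost.

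Each line of the table is 1 target and barcode in 1 mouse, taken here as 1 tumour, and the largest tumour of each mouse shows the form of a barcode. Of the tumours in the 6 mice, 90.8% had a barcode of the form AANNNNNTTNNNNNAANNNNN, in which N is any letter and the others are the letters found in at least 80% of these tumours, read in 1 direction only. The 6 barcodes below are shown because they carry the upper end of the size range, with capitals at the N positions and lower case at the fixed ones.
Neo mouse 1: aaTGTTCttCGCGCaaTGCCC
Neo mouse 2: aaTTTTGtgTCAATcgAAATG
Neo mouse 3: aaTCCCCttGGACCaaCCCTC
Setd2 mouse 1: aaGCAACttGGCGCaaCCGCC
Setd2 mouse 2: aaTCTACtgGTGTAatGGAGA
Setd2 mouse 3: aaCTCTTctCTTAAagAATAT

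The tumours with these barcodes held 79473, 1784540 and 14158 cells in Neo mice 1, 2 and 3. They held 215311, 4529670 and 4416990 cells in Setd2 mice 1, 2 and 3. The largest tumour of Neo mouse 2 was thus larger than that of Setd2 mouse 1, and the groups overlapped. The geometric means differed 12.9-fold (log2 difference 3.69 ± 2.51, SE, n = 3 and 3, exact permutation p = 0.2), with a range from 4.32-fold without Neo mouse 3 to 48.5-fold without Neo mouse 2. Each of these 6 barcodes was also listed in 3 to 17 other mice of the series. The barcode of Neo mouse 3 reached 489777 cells in a KPTC mouse with the pool, and that of Setd2 mouse 1 reached 1143260 cells in a KLTC-Setd2 mouse. Among barcodes listed in no other mouse, the largest tumours held 48737, 42872 and 11386 cells in the Neo mice and 45450, 382452 and 840648 cells in the Setd2 mice, with overlap. The 3 largest of these 6 tumours are the 3 whose barcodes depart from the common form at the fixed letters. The cause was not tested.

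More reads stood behind a given size in some libraries than in others, and this bears on every size below. Within each mouse, 100% of the sizes were a whole number of reads, plus a small term set by the GC content of the barcode (0.0215 to 0.235 reads), times a fixed number of cells per read. The match was counted within 0.01 read. One read stood for 209, 603 and 18.6 cells in Neo mice 1, 2 and 3 and for 142, 74.3 and 711 cells in Setd2 mice 1, 2 and 3, a 38.2-fold range. Whether the same whole number of reads was added or taken off in all mice cannot be told from the values.

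The smallest listed size followed this depth exactly in order. It was 633, 1221 and 503 cells in Neo mice 1, 2 and 3 and 570, 522 and 1440 cells in Setd2 mice 1, 2 and 3. Neo mouse 2 and Setd2 mouse 3 thus list no tumour in the range where the other mice list many, and their percentiles start higher. The median tumour rested on 5, 4 and 46 reads in the Neo mice and on 9, 29 and 6 in the Setd2 mice. For counting error alone, the exact Poisson 95% interval of a median tumour was 657 to 6176 cells in Neo mouse 2 and 1443 to 3095 cells in Setd2 mouse 2. Reads made by PCR are not independent molecules, so these intervals are too narrow. Results are therefore also given above the common limit of 1440 cells, and with the reads of every library thinned at random to 711 cells per read.

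**Figure D1:**
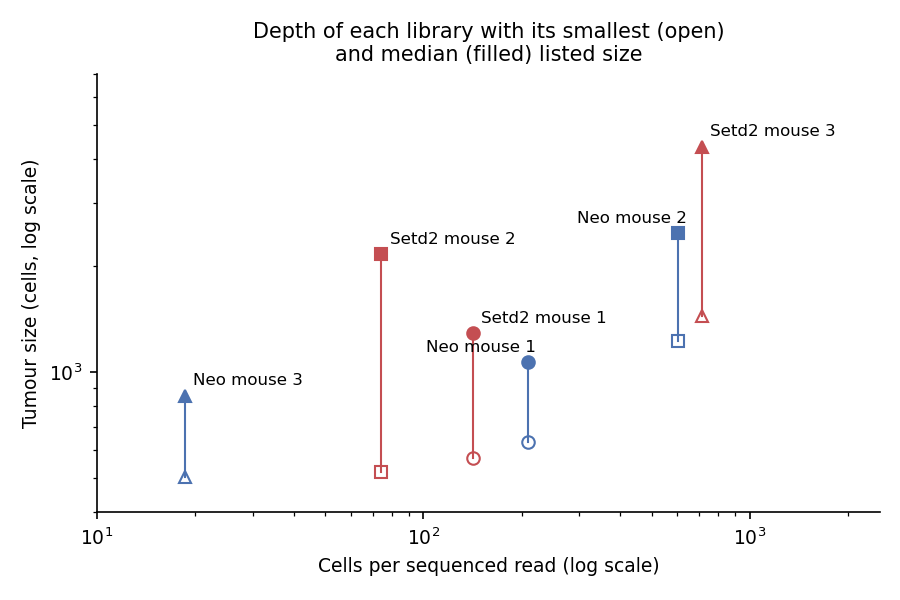
Depth of each of the 6 libraries, as cells per sequenced read (horizontal, log scale), against the smallest (open) and the median (filled) tumour size in cells (vertical, log scale), Neo mice in blue and Setd2 mice in red. The smallest size rises with the cells per read from 503 cells in Neo mouse 3 to 1440 cells in Setd2 mouse 3.

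Tumours in the upper part of the size distribution were larger in the Setd2 mice on average, but most summaries of size overlapped between the groups. With 3 mice against 3, the two-sided exact permutation test has 20 relabellings and cannot give a p below 0.1. No result of these 6 mice can therefore pass 0.05, and each is given with its overlap and its SE. The log-normal mean size, which is the mean that a log-normal distribution with the observed mean and variance of log size would have, was 1746, 4128 and 1201 cells in Neo mice 1, 2 and 3. It was 2397, 6246 and 13313 cells in Setd2 mice 1, 2 and 3. Setd2 mouse 1 lay below Neo mouse 2, and the other Setd2 mice lay above every Neo mouse. The geometric means over mice were 5841 and 2053 cells, 2.85-fold apart (log2 difference 1.51 ± 0.89, SE, n = 3 and 3, exact permutation p = 0.2).

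Above the common limit of 1440 cells, the log-normal means no longer overlapped. They were 3822, 4623 and 2810 cells in the Neo mice and 5181, 10333 and 13313 cells in the Setd2 mice (log2 difference 1.28 ± 0.46, SE, n = 3 and 3, exact permutation p = 0.1, the smallest possible). Thinned to equal depth and with at least 5 thinned reads per tumour, they were 7373, 8674 and 5023 cells in the Neo mice and 9701, 18468 and 20725 cells in the Setd2 mice. The groups again did not overlap (log2 difference 1.18 ± 0.41, SE, n = 3 and 3, exact permutation p = 0.1).

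This separation depended on the number of thinned reads required. Minimums of 3, 5 and 10 reads were all examined. At 3 reads the means did not overlap (log2 difference 1.25 ± 0.44, SE). At 10 reads they did, with 18535 cells in Setd2 mouse 1 against 26600 cells in Neo mouse 2 (log2 difference 1.05 ± 0.61, SE, n = 3 and 3, exact permutation p = 0.2), and Neo mouse 3 kept only 22 tumours. They also overlapped with a minimum of 1000, 5000 or 10000 cells, where the log2 differences were 1.36, 1.07 and 1.01. The direction was the same in each of these settings.

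**Figure D2:**
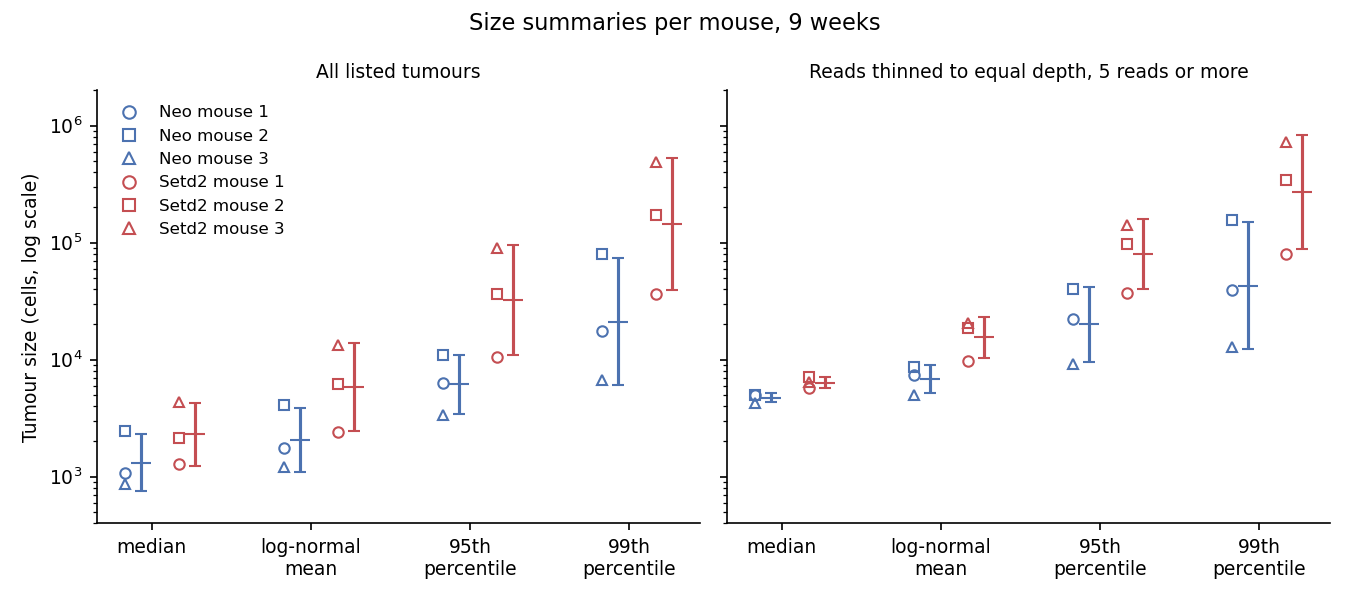
Median, log-normal mean, 95th and 99th percentile of tumour size in cells (vertical, log scale) for each mouse, with all listed tumours (left) and after thinning to equal depth with at least 5 reads (right). Bars give the geometric mean and the SD of the log2 values over the 3 mice of a group. With all tumours, each of the 4 summaries overlaps between the groups. After thinning, the median and the log-normal mean do not.

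The difference grew from the lower to the upper percentiles of the listed sizes. At the 10th percentile, the Setd2 mice were 1.25-fold above the Neo mice (log2 difference 0.32 ± 0.71, SE), well within the spread between mice. This percentile was 646, 1266 and 541 cells in Neo mice 1, 2 and 3 and 580, 676 and 2197 cells in Setd2 mice 1, 2 and 3. The smallest listed sizes were 633, 1221 and 503 cells and 570, 522 and 1440 cells. The 10th percentile thus lies near the lower limit of most lists, and its small difference says little about small tumours. The median tumour held 1065, 2476 and 857 cells in Neo mice 1, 2 and 3 and 1285, 2159 and 4342 cells in Setd2 mice 1, 2 and 3. Neo mouse 2 thus had a higher median than Setd2 mice 1 and 2 (log2 difference 0.80 ± 0.69, SE, n = 3 and 3, exact permutation p = 0.3).

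At the 95th percentile, tumours held 6291, 10912 and 3371 cells in the Neo mice and 10486, 36149 and 89662 cells in the Setd2 mice. Only Setd2 mouse 1 fell below the highest Neo mouse there, by a small margin. The geometric means differed 5.28-fold (log2 difference 2.40 ± 1.02, SE, n = 3 and 3, exact permutation p = 0.2, adjusted p = 0.333 over 10 percentiles), from 3.17-fold without Setd2 mouse 3 to 9.27-fold without Setd2 mouse 1. At the 99th percentile, sizes were 17584, 79663 and 6651 cells in the Neo mice and 36666, 171123 and 487775 cells in the Setd2 mice. That is a 6.90-fold difference with overlap (log2 difference 2.79 ± 1.50, SE), from 3.76-fold without Setd2 mouse 3 to 13.7-fold without Setd2 mouse 1. At the highest percentile examined, with 1 tumour in 1000 above it, the difference was 9.86-fold (log2 difference 3.30 ± 1.77, SE). The groups overlapped there too, with 104495 cells in Setd2 mouse 1 against 256927 cells in Neo mouse 2. Neo mice 1 and 3 list 2625 and 1918 tumours, so very few of their tumours lie above this percentile.

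**Figure D3:**
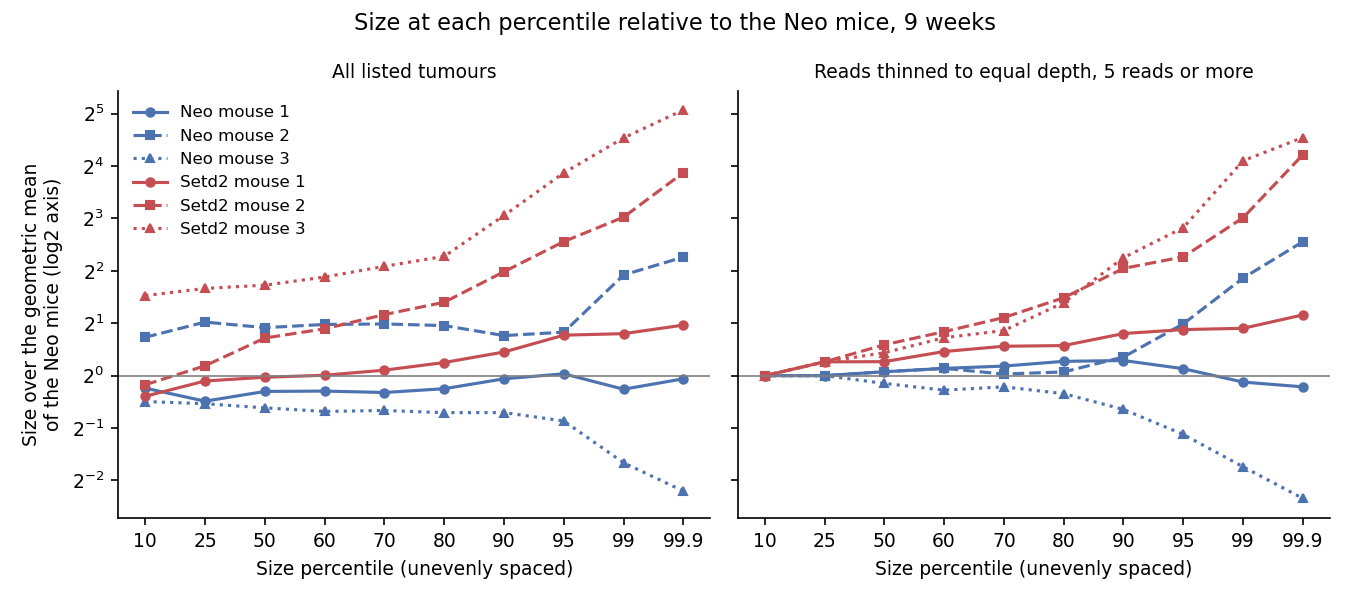
Tumour size at each of 10 percentiles divided by the geometric mean of the 3 Neo mice (vertical, log2 axis), for each mouse with all listed tumours (left) and thinned to equal depth with at least 5 reads (right). The mean log2 difference with all tumours is 0.32 at the 10th, 0.80 at the 50th and 2.40 at the 95th percentile. Setd2 mice 2 and 3 rise steeply, and Setd2 mouse 1 stays close to the Neo mice.

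The spread of sizes within a mouse is a measure that a wrong scale would not change if the same tumours were listed. No tumour under 500 cells was listed, so a wrong scale could still change which tumours are listed and thereby the spread. The 95th percentile was 5.91, 4.41 and 3.93 times the median in Neo mice 1, 2 and 3. In Setd2 mice 1, 2 and 3 it was 8.16, 16.7 and 20.7 times the median, so that all Setd2 mice lay above all Neo mice. The ratio was 3.02-fold higher in the Setd2 mice (log2 difference 1.60 ± 0.44, SE, n = 3 and 3, exact permutation p = 0.1, adjusted p = 0.15 over 3 measures of spread). The SD of log2 size did not overlap either, at 0.865 to 1.11 in the Neo mice and 1.32 to 1.85 in the Setd2 mice.

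The same ratio above the common limit of 1440 cells was 5.15, 4.15 and 2.82 in the Neo mice and 6.99, 15.6 and 20.7 in the Setd2 mice, again without overlap. At equal depth it overlapped with at least 5 reads, where Neo mouse 2 reached 8.01 and Setd2 mouse 1 only 6.50 (log2 difference 1.56 ± 0.75, SE, n = 3 and 3, exact permutation p = 0.2). With at least 3 reads it did not overlap, and with at least 10 reads it did. The 99th percentile over the median overlapped with all tumours (7.76 to 32.2 in the Neo mice, 28.5 to 112 in the Setd2 mice).

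A size of 10000 cells lies above the lower limit of every library and stood for at least 14.1 reads. Of the listed tumours, 2.48%, 5.69% and 0.261% held at least 10000 cells in Neo mice 1, 2 and 3. The share was 5.20%, 14.3% and 24.1% in Setd2 mice 1, 2 and 3, and Setd2 mouse 1 fell just below Neo mouse 2 (difference of 11.7 ± 5.69 percentage points, SE, n = 3 and 3, exact permutation p = 0.2, adjusted p = 0.35 over 7 sizes). Among tumours of at least 1000 cells, the shares were 4.41%, 5.69% and 0.668% in the Neo mice and 7.97%, 18.6% and 24.1% in the Setd2 mice. These shares did not overlap (difference of 13.3 ± 4.98 percentage points, SE, n = 3 and 3, exact permutation p = 0.1, adjusted p = 0.24 over 6 sizes).

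Among tumours of at least 5000 cells, 35.9%, 35.6% and 11.9% reached 10000 cells in the Neo mice, against 47.9%, 56.4% and 49.2% in the Setd2 mice. The groups did not overlap in this share, in which Setd2 mouse 1 stood next to the other Setd2 mice. Only 42 tumours of Neo mouse 3 entered it, and the difference of 23.4 ± 8.38 percentage points (SE) was 15.4 without that mouse. With barcodes listed in any other mouse left out, the difference was 7.77 ± 9.31 percentage points (SE) and the groups overlapped. Tumours of at least 100000 cells were absent from the lists of Neo mice 1 and 3 and numbered 32 in Neo mouse 2. They numbered 11, 530 and 345 in Setd2 mice 1, 2 and 3. As a share of all listed tumours of the mouse, this was 0.723% in Neo mouse 2 and 0.139%, 1.84% and 4.55% in Setd2 mice 1, 2 and 3. At 1000000 cells, 1 tumour was listed over the Neo mice, in mouse 2 (0.0226% of its tumours). Setd2 mice 2 and 3 listed 20 and 28 (0.0693% and 0.369%).

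**Figure D4:**
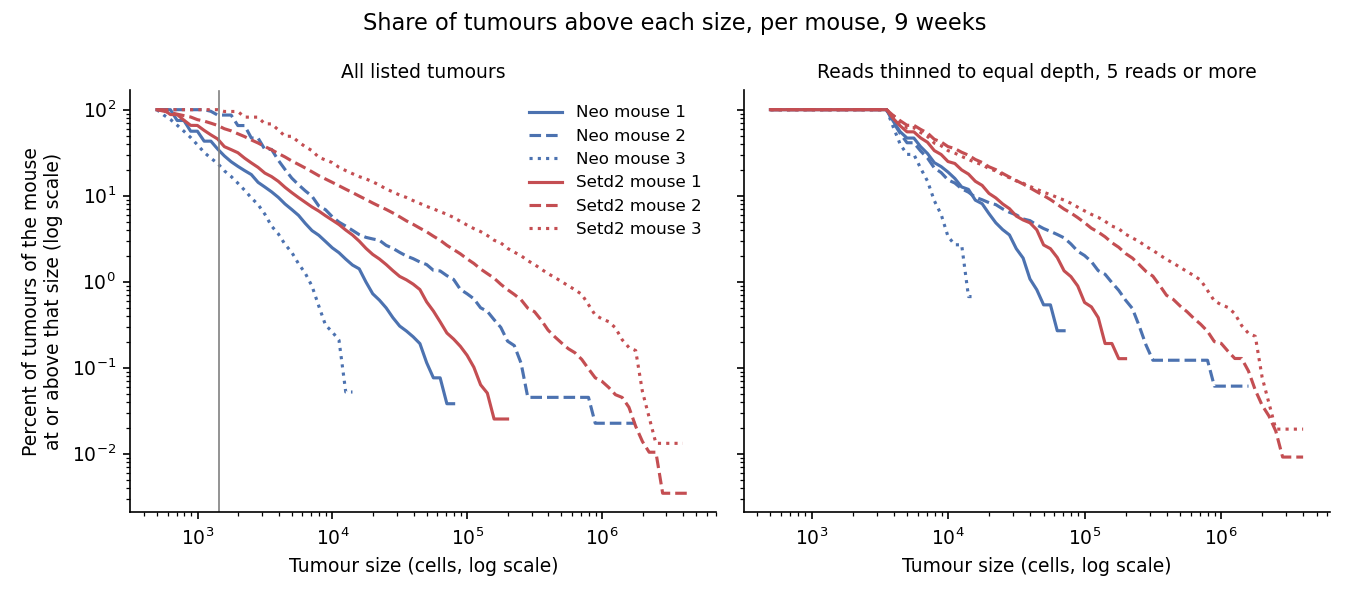
Percent of the tumours of each mouse at or above a given size (both axes log scale), for all listed tumours (left, grey line at the common limit of 1440 cells) and thinned to equal depth with at least 5 reads (right). The curves of Setd2 mice 2 and 3 lie to the right at large sizes. With all tumours, 14.3% and 24.1% of theirs hold at least 10000 cells, while Setd2 mouse 1 (5.20%) lies close to Neo mouse 2 (5.69%).

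More tumours were listed in every Setd2 mouse than in any Neo mouse. The numbers were 2625, 4427 and 1918 in Neo mice 1, 2 and 3 and 7905, 28853 and 7581 in Setd2 mice 1, 2 and 3. The geometric means differed 4.26-fold (log2 difference 2.09 ± 0.72, SE, n = 3 and 3, exact permutation p = 0.1), and 2.75-fold without Setd2 mouse 2. The groups overlapped above the common limit, with 3272 tumours in Setd2 mouse 1 and 3833 in Neo mouse 2, while the fold was larger at 6.69 (log2 difference 2.74 ± 1.17, SE). At equal depth with at least 5 reads, the numbers were 372, 1639 and 149 in the Neo mice and 1571, 10949 and 5183 in the Setd2 mice, again with overlap and with a larger fold of 9.94 (log2 difference 3.31 ± 1.30, SE). A listed number depends on the amount of virus, on the tumours that start and on those that pass the lower limit of the list. These cannot be told apart here.

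The listed cells added up to 5374020, 26694100 and 2425320 in Neo mice 1, 2 and 3. They added up to 24448700, 320308000 and 203132000 in Setd2 mice 1, 2 and 3, and Setd2 mouse 1 was just below Neo mouse 2. This sum, which moves with number and with size, differed 16.6-fold (log2 difference 4.05 ± 1.53, SE, n = 3 and 3, exact permutation p = 0.2). The fold ranged from 9.75 without Neo mouse 3 to 36.3 without Setd2 mouse 1.

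Cells were also divided less evenly among tumours in the Setd2 mice. The Gini coefficient, which is 0 when all tumours are equal in size, was 0.517, 0.613 and 0.380 in Neo mice 1, 2 and 3 and 0.623, 0.808 and 0.818 in Setd2 mice 1, 2 and 3. The groups did not overlap, by a narrow margin between Neo mouse 2 and Setd2 mouse 1 (difference 0.246 ± 0.093, SE, n = 3 and 3, exact permutation p = 0.1, adjusted p = 0.267 over 4 measures). The largest 10% of tumours held 46.2%, 58.2% and 32.8% of the listed cells in the Neo mice and 55.9%, 75.9% and 79.2% in the Setd2 mice, with overlap. The single largest tumour went the other way on average, because in Neo mouse 2 it held 6.69% of all cells, against 0.881% to 2.17% in the Setd2 mice.

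A pair of mice shaped the overlaps. Neo mouse 2 was the highest Neo mouse and Setd2 mouse 1 the lowest Setd2 mouse at each of the 10 percentiles, and they differed in depth, at 603 and 142 cells per read. Without Neo mouse 2, the log-normal means differed 4.03-fold and did not overlap, and without Setd2 mouse 1 they differed 4.44-fold and did not overlap (exact permutation p = 0.2 for both, the smallest that 2 mice against 3 allow). Without Setd2 mouse 3 the log2 difference fell to 0.91. Mice next to each other in depth can also be set side by side, in pairs chosen after the values were seen. Depth is least alike between Setd2 mouse 2 and Neo mouse 3, at 74.3 and 18.6 cells per read. It is 142 and 209 in Setd2 mouse 1 and Neo mouse 1, and 711 and 603 in Setd2 mouse 3 and Neo mouse 2. Setd2 mouse 2 over Neo mouse 3 gave a 95th percentile ratio of 10.7, Setd2 mouse 1 over Neo mouse 1 a ratio of 1.67, and Setd2 mouse 3 over Neo mouse 2 a ratio of 8.22. Thinned to equal depth with at least 5 reads, these ratios were 10.5, 1.68 and 3.57. The medians of the same pairs with all tumours gave ratios of 2.52, 1.21 and 1.75, all above 1 and smaller.

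Many barcodes were listed in more than 1 mouse. The percent of tumours that had their target and barcode listed in another mouse of the series too was 78.6, 51.5 and 92.6 in Neo mice 1, 2 and 3 and 76.3, 38.0 and 59.9 in Setd2 mice 1, 2 and 3. Among the 200 largest tumours of a mouse, between 149 and 198 had such a barcode. The sharing stayed within a target with few exceptions. None of the 10161 barcodes of the 9-week mice with the inert vector was among the 39867 of the 9-week mice with the Setd2 vector. In the pool mice at 15 weeks, 19.1% to 38.7% of the barcodes were listed with the same target and at most 0.0264% with another target.

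The relation between the sizes of a shared barcode in both mice of a pair differed among the 6 pairs with the same vector. Setd2 mice 1 and 2 shared 4204 barcodes, which is 53.2% of the tumours of the first and 14.6% of those of the second, and their sizes had a Spearman rho of 0.160 across these barcodes. The highest rho was 0.518, over the 958 barcodes of Neo mice 1 and 3, and the other pairs had 0.026 to 0.187. These values describe barcodes, which are not independent replicates. Only 24 barcodes in the 6 mice were 1 letter away from a barcode at least 10 times larger in the same mouse. Whether shared barcodes are the same vector in separate tumours or reads carried between libraries was not tested.

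**Figure D5:**
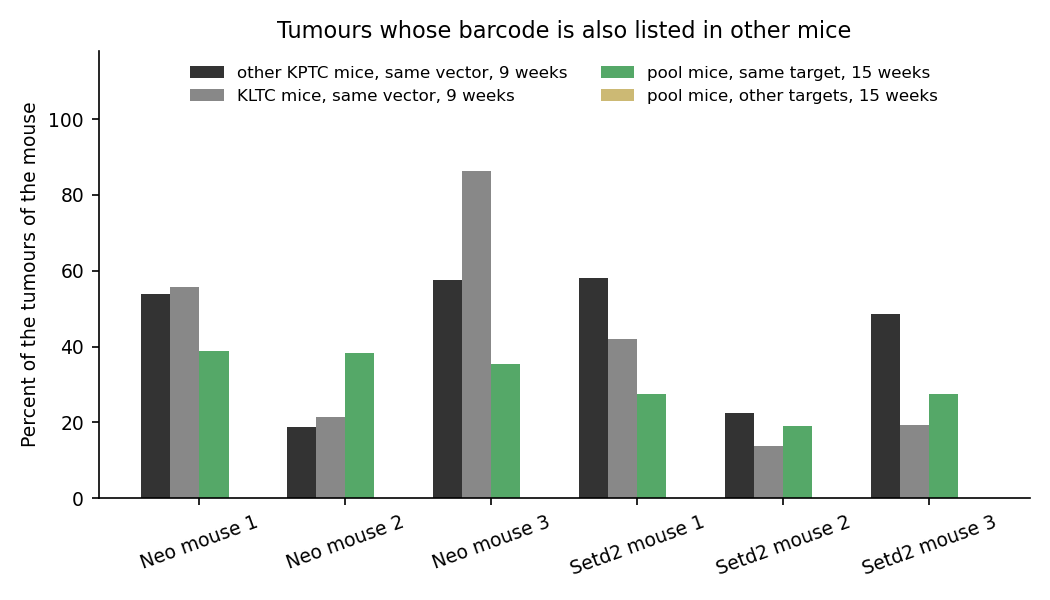
Percent of the tumours of each mouse (vertical) whose barcode is also listed in other KPTC mice with the same vector, in KLTC mice with the same vector, and in the 15-week pool mice with the same or with another target. Up to 86.3% are shared with KLTC mice (Neo mouse 3), and the bars for another target, at most 0.0264%, are too low to see.

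Tumours with barcodes listed in no other mouse also had a longer upper tail in the Setd2 mice. There, the 95th percentile was 3.44, 2.95 and 3.05 times the median in Neo mice 1, 2 and 3 and 7.06, 9.60 and 18.2 times in Setd2 mice 1, 2 and 3, without overlap. This rests on 563, 2147 and 142 tumours in the Neo mice and 1876, 17879 and 3039 in the Setd2 mice. Their log-normal means were 1198, 3008 and 861 cells in the Neo mice and 1831, 3668 and 11311 cells in the Setd2 mice, with overlap. Leaving out shared barcodes removed unequal shares of the large tumours. Of tumours above 10000 cells, 87.7%, 81.3% and 80% had a shared barcode in Neo mice 1, 2 and 3. The shares were 85.2%, 61.1% and 61.9% in Setd2 mice 1, 2 and 3. How far this unequal removal adds to the difference in the upper tail was not tested. With tumours listed at least 10 times larger in another mouse left out, the 95th percentile over the median came to 3.77, 4.41 and 4.46 in the Neo mice and 9.83, 17.5 and 22.6 in the Setd2 mice, again without overlap.

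The same vectors were given to KLTC mice, in which by the same naming Cre deletes Lkb1 in place of p53. Their log-normal mean sizes at 9 weeks had a lowest, median and highest value of 1339, 5931 and 472495 cells in 5 Neo mice and of 2309, 29053 and 319334 cells in 7 Setd2 mice. The Setd2 mice were higher by 1.36 ± 1.90 on the log2 scale (SE, n = 7 and 5, exact permutation p = 0.472), with wide overlap. The difference in KLTC mice minus that in KPTC mice was -0.15 ± 2.10 (SE, exact permutation p = 0.945 over 15840 relabellings within genotypes). This contrast changed sign without some single mice and was 1.26 without KLTC-Neo mouse 5, so these mice leave a dependence on the genotype undetermined.

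KPTC mice with the pool of vectors at 15 weeks hold Setd2 and inert tumours in the same lungs and the same library. Over 12 such mice, the log-normal mean of the Setd2 tumours was 1.62-fold that of the inert tumours (mean log2 ratio 0.69 ± 0.38, SD, n = 12, above 0 in 12 of 12 mice, exact two-sided sign-flip permutation p = 0.000488, the smallest possible, adjusted p = 0.00061 over 5 measures). The log2 ratio was 0.10 at the median, 0.80 at the 90th, 1.36 at the 95th and 2.01 at the 99th percentile. For the median, 11 of 12 mice were above 0 (exact sign-flip permutation p = 0.0317, n = 12, adjusted p = 0.0317). Beside them stand the 9-week log2 differences between mice of 0.80, 1.83, 2.40 and 2.79 at the same percentiles. The labels used here number the Setd2 sgRNA of the 9-week mice but give no sgRNA number for the pool mice. Whether the pool carries the same Setd2 and inert sgRNAs is not known here. The labelled times of 9 and 15 weeks and the designs also differ, and the difference between these sets of values was not tested.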

How the data were processed

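Per the labels' protocols, barcodes were amplified by PCR from DNA of whole lungs and sequenced as 1 library per mouse. The deposited table lists a target, a barcode and an absolute number of cells per tumour, a unit the authors named (other than reads). Not given in the sources used here are how reads were joined into barcodes, which standard set the scale and whether PCR bias was corrected. No listed tumour was under 500 cells. Mice were grouped by the genotype label, which was checked against every line of the table without a mismatch. Mice were numbered in accession order.

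Reads were recovered from the steps between sizes. Per-mouse summaries were computed with numpy 2.4.6 and pandas 2.3.3 and tested with exact two-sided permutation tests in scipy 1.17.1, with Benjamini-Hochberg adjustment within each family of measures. The mouse was the replicate. The procedure was tested on simulated data. For the size comparison, simulated mice were drawn in equal number from the pooled Neo tumours, with a known fold. They did not differ in depth or lower limit, so the test does not cover such differences.

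The comparison, its measures and the named tumours (the largest of each mouse) were chosen with earlier results of these data known. Alternatives were other minimum sizes, the common limit, other size summaries, tumours left out by barcode or size, and each mouse left out. Those added after the data were seen were the minimum of 10000 cells, leaving out barcodes listed in any other mouse, and thinning with at least 3, 5 or 10 reads. All 3 thinning minimums were examined before 5 was taken for the figures, and they differ in overlap. At 711 cells per read, few tumours under 500 cells reach 5 reads. Thinning is 1 random draw with a fixed seed. The sgRNA sequences were not used here.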

Additional observations from a re-analysis of the deposited data

How the results depend on the processing

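No result of the 6 mice could pass 0.05 under any setting, so only directions, sizes and overlap can change. Every Setd2 minus Neo difference kept its direction under the planned minimum sizes, the common limit and the other size summaries. The share of cells in the largest 1% of tumours was 14.8 percentage points higher in the Setd2 mice with all tumours and -0.813 with a minimum of 10000 cells, where Neo mouse 3 has 5 tumours. The 10th percentile had a log2 difference of 0 when thinned with at least 3 or 5 reads, since it then equals the lowest size kept. Differences at 1000000 cells were 0 in number and in each share with barcodes listed in any other mouse left out, as no such tumour remained. With each mouse left out in turn, the log2 difference at the 10th percentile ranged from -0.28 to 0.69, the share in the largest tumour from -2.59 to 0.458 percentage points, and the log-normal mean from 0.91 to 2.15 on the log2 scale. The KLTC minus KPTC contrast was 0.032 with a minimum of 1000 cells, 0.456 with 5000 cells, and -0.86 to 1.26 with each mouse left out. At 15 weeks the log2 ratio stayed between 0.62 and 0.73 with each mouse left out (exact sign-flip permutation p = 0.000977). No paired analysis of the 9-week mice was possible, because each mouse received 1 vector and the labels pair no Setd2 mouse with a Neo mouse. The 15-week values are ratios within each mouse.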
